A study of Mus musculus with 48 samples.

Results

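Sphingosine 1-phosphate (S1P) is a signaling lipid made from sphingosine, and the 9 genes described here cover its receptors, its production and export, and its breakdown. They are the receptor genes S1pr1, S1pr2 and S1pr3, the sphingosine kinase genes Sphk1 and Sphk2, the exporter gene Spns2, and the genes Sgpl1, Sgpp1 and Plpp3, whose products remove S1P. The genes were chosen by name, with earlier results of these data known. All 9 were found among the 54752 genes of one deposited expression matrix. RNA-seq had been run on 48 libraries of 4 populations, 12 of each: lymphatic endothelial cells (LECs) isolated from heart, LECs isolated from diaphragm, blood endothelial cells (BECs) from heart, and cardiomyocytes. In every population 4 libraries were from ctrl mice given BSA, 5 from angII mice given angiotensin II in BSA, and 3 from angII+VEGFC mice given angiotensin II and VEGFCc156s, a form of the lymphatic growth factor VEGFC. All animals were Prox1-eGFP knock-in mice of the C57BL/6 strain by the labels (the knock-in was made in C57BL/6J by the methods), in which eGFP is expressed from the endogenous gene of the lymphatic regulator Prox1, and cells were taken after 5 to 6 weeks of infusion. The labels give ages of 8 to 16 months, while the study's methods count age in weeks, so the unit of age is uncertain.

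In the vasculature, S1P is exported from endothelial cells through Spns2, and lymph is known to receive much of its S1P from lymphatic endothelium. S1pr1 is the main endothelial receptor, couples to Gi proteins and is known for strengthening cell junctions, whereas the S1pr2 and S1pr3 products also couple to other G proteins and S1pr3 is well known in smooth muscle and pericytes. Plpp3 encodes a membrane phosphatase that dephosphorylates lipid phosphates outside the cell, while Sgpp1 dephosphorylates S1P and Sgpl1 cleaves it irreversibly inside the cell.

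Expression was given in TPM (transcript abundance scaled to a fixed library total), which are scaled for transcript length and library, so levels can be set side by side between genes. Lymphatic markers (Prox1, Lyve1, Flt4, Pdpn, Ccl21a and Reln) summed to between 16281 and 40272 TPM in the LEC libraries and to at most 672 TPM in the heart BEC libraries. Blood endothelial markers summed to between 12981 and 19991 TPM in heart BECs, and to between 1246 and 7339 TPM in heart LECs. The cardiomyocytes were pelleted from the heart digest and not sorted. Their libraries held 471 to 823 TPM of pan-endothelial, 2413 to 6502 TPM of fibroblast and 1009 to 2132 TPM of pericyte and smooth muscle markers, and 15.9 to 31.0% of their TPM was mitochondrial, against 0.910 to 8.76% in the endothelial libraries. In bulk libraries of this kind, fewer cells of a type and less RNA per cell cannot be told apart.

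Averaged over the 3 treatments, the receptors and the phosphatase gene Plpp3 were higher in heart BECs than in LECs. In ctrl libraries only, S1pr2 did not pass an adjusted p under 0.05 against either LEC population, nor did S1pr1 against diaphragm LECs. The exporter gene Spns2 was higher in diaphragm LECs than in heart BECs and, in a call that was not stable, in heart LECs. S1pr1 was the most abundant receptor gene in every one of the 48 libraries. It ranged from 224 to 427 TPM with a median of 328 in heart LECs, from 313 to 420 TPM with a median of 380 in diaphragm LECs, from 451 to 912 TPM with a median of 602 in heart BECs, and from 83.8 to 141 TPM with a median of 106 in cardiomyocytes. The heart BEC range lay above both LEC ranges, and all 3 endothelial ranges lay above that of the cardiomyocytes. The median share of S1pr1 in the summed TPM of the 3 receptor genes was 69.5% in cardiomyocytes, against 95.4% in BECs and, in the LECs of heart and diaphragm, 97.6% and 99.2%. Blood endothelial markers summed to between 1972 and 3391 TPM in the unsorted cardiomyocyte libraries. The part of endothelial cells in the S1pr1 values of these libraries was not tested.

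S1pr2 was low everywhere, with medians of 1.68 TPM (heart LECs), 1.88 TPM (diaphragm LECs), 4.91 TPM (heart BECs) and 7.78 TPM (cardiomyocytes), and its ranges overlapped between all neighbours in this order. S1pr3 ran from 0 to 42.4 TPM with a median of 6.77 in heart LECs, from 0.175 to 18.0 TPM with a median of 1.16 in diaphragm LECs, from 15.4 to 52.8 TPM with a median of 23.97 in heart BECs, and from 26.1 to 58.4 TPM with a median of 40.3 in cardiomyocytes. The overlap of heart LECs with heart BECs came from 2 libraries, those of mouse 9 (30.1 TPM) and mouse 3 (42.4 TPM). S1pr2 was listed at 0 in the heart LEC library of mouse 1 and S1pr3 in that of mouse 6. The remaining receptor genes of the family, S1pr4 and S1pr5, averaged at most 2.64 and 0.44 TPM in any population.

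Sphk1 was highest in diaphragm LECs, at 32.3 to 101 TPM with a median of 54.0, against 12.1 to 54.7 TPM with a median of 31.1 in heart LECs, 8.36 to 36.6 TPM with a median of 22.6 in heart BECs and 7.57 to 42.5 TPM with a median of 19.1 in cardiomyocytes. Sphk2 had medians between 8.69 and 12.0 TPM in the 4 populations, and was listed at 0 in the heart LEC library of mouse 1. Spns2 ranged from 12.1 to 180 TPM with a median of 79.5 in heart LECs, from 46.9 to 264 TPM with a median of 88.7 in diaphragm LECs, from 20.6 to 67.2 TPM with a median of 30.8 in heart BECs, and from 2.39 to 16.7 TPM with a median of 5.71 in cardiomyocytes. The endothelial ranges of Spns2 overlapped, and the heart BEC range lay above the cardiomyocyte range.

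Among the genes of S1P breakdown, Plpp3 set heart BECs apart. It ranged from 391 to 588 TPM with a median of 482 in heart BECs, from 73.3 to 221 TPM with a median of 143 in heart LECs, from 99.9 to 202 TPM with a median of 152 in diaphragm LECs, and from 91.4 to 171 TPM with a median of 116 in cardiomyocytes. No heart BEC library overlapped with any library of another population. Sgpl1 had medians of 13.0 to 15.7 TPM and Sgpp1 of 9.40 to 15.5 TPM, with overlapping ranges in all populations.

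**Figure D1:**
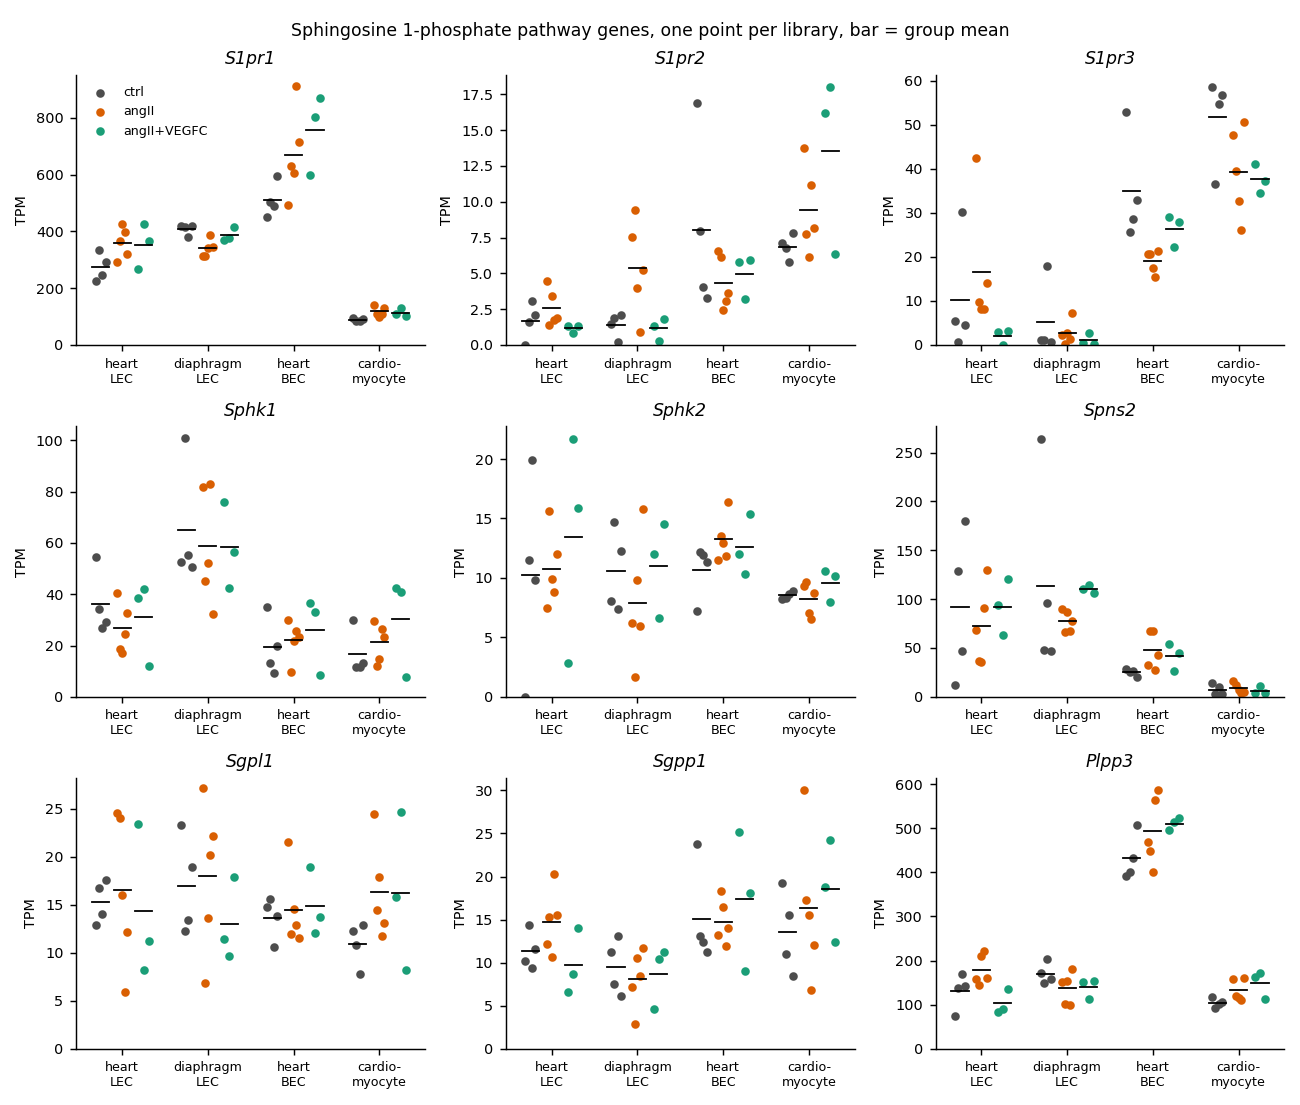
TPM of the 9 genes on linear axes starting at 0, by population and treatment. Each point is a library and each bar the mean of a group of 3 to 5 libraries; S1pr1 and Plpp3 lie highest in heart BECs, and Spns2 is highest in the LEC populations with a wide spread.

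The promoter windows of the receptor gene S1pr3 and of the phosphatase gene Plpp3 are shown because both genes were lower in LECs than in heart BECs. They are the 250 bases before and 50 after the RefSeq transcript start in GRCm38.p6, at chr13:51408368-51408667 on the plus strand for S1pr3 and at chr4:105157097-105157396 on the plus strand for Plpp3. Capitals mark matches, on either strand, to 4 short motifs: CCGGAA for ETS factors, CACCC for KLF factors, AACAAT for SOX factors and AGATAA for GATA factors.
S1pr3: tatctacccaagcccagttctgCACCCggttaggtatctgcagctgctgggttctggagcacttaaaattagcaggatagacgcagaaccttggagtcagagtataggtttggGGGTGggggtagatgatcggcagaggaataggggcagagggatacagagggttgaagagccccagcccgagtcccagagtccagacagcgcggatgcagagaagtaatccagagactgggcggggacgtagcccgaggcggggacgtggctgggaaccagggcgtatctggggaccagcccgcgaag
Plpp3: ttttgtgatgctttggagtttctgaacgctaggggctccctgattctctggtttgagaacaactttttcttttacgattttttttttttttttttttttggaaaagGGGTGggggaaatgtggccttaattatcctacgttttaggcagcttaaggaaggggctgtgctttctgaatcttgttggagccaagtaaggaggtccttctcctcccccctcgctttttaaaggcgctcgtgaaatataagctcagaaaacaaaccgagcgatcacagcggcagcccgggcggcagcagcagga
The S1pr3 window held 2 matches to the KLF motif and the Plpp3 window 1, and no match overlapped with another. Over all 32851 promoter windows of this length, the ETS motif was present in 14.9%, the KLF motif in 57.5%, the SOX motif in 10.7% and the GATA motif in 11.2%. Promoter windows were matched for 8 of the 9 genes. The gene bodies lie at chr13:51408639-51422797 (S1pr3) and chr4:105157347-105232764 (Plpp3) in GRCm38, so that both windows span the 5′ end of the gene. The window listed for Spns2 (chr11:72474978-72475277, minus strand) lies inside the gene body (chr11:72451638-72489904) and is not shown.

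To ask how heart lymphatic endothelium differed from heart blood endothelium, log2(TPM + 1) values were compared in limma with age and sequencing batch as covariates, averaging the difference over the 3 treatments. Of the 9 genes, 5 passed at an adjusted p under 0.05, against 17.6% of the 32754 genes tested. The median difference was -0.40 over the 9 genes and 0.15 over all genes. All 3 receptor genes were lower in heart LECs, S1pr1 by a log2 difference of -0.96 ± 0.09 (SE, limma adjusted p = 4.55e-10), S1pr2 by -1.24 ± 0.29 (adjusted p = 0.00179) and S1pr3 by -2.10 ± 0.38 (adjusted p = 8.33e-05). Plpp3 was also lower, by -1.86 ± 0.12 (limma adjusted p = 3.01e-14), a 3.63-fold difference. In these 4 genes heart LECs were the lower of the populations, where 8.64% of all genes were called in that direction, and within the mouse S1pr1 and Plpp3 were lower in heart LECs than in heart BECs in 12 of 12 animals.

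Spns2 was the member called higher in heart LECs, by 0.96 ± 0.31 (limma adjusted p = 0.0278), against 8.94% of all genes in that direction. This call was not stable. With the mouse as a block in limma the adjusted p was 0.0551 at the same difference, heart LECs were higher in 9 of 12 mice, and the difference of means was 0.02 within sequencing batch 1 and 1.80 within batch 2. S1pr1 (-0.83 and -1.06), S1pr2 (-1.23 and -1.10), S1pr3 (-1.42 and -2.28) and Plpp3 (-1.73 and -1.84) were lower in heart LECs within both batches. Sphk1 was 0.52 ± 0.25 higher in heart LECs (limma adjusted p = 0.173, 95% interval 0.00 to 1.04), Sphk2 differed by -0.40 ± 0.34 (adjusted p = 0.461), Sgpp1 by -0.36 ± 0.21 (adjusted p = 0.253) and Sgpl1 by 0.02 ± 0.22 (adjusted p = 0.959), so these 4 did not pass. In ctrl libraries only, S1pr2 did not pass (-1.68, limma adjusted p = 0.1204).

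Diaphragm LECs, the peripheral lymphatic population, differed from heart BECs in 7 of the 9 genes, against 16.6% of all genes. Lower in diaphragm LECs were S1pr1 (-0.74 ± 0.09, limma adjusted p = 8.74e-08), S1pr2 (-1.08 ± 0.29, adjusted p = 0.00621), S1pr3 (-3.25 ± 0.38, adjusted p = 2.83e-08), Plpp3 (-1.69 ± 0.12, adjusted p = 1.71e-13) and Sgpp1 (-0.80 ± 0.21, adjusted p = 0.0047), where 9.01% of all genes were called lower. Higher were Sphk1 (1.48 ± 0.25, limma adjusted p = 2.56e-05) and Spns2 (1.33 ± 0.31, adjusted p = 0.0016), where 7.54% of all genes were called higher. Both were higher in diaphragm LECs in 11 of 11 mice, and the Spns2 difference was 1.48 in batch 1 and 1.06 in batch 2. Sphk2 (-0.36 ± 0.34, limma adjusted p = 0.670) and Sgpl1 (0.09 ± 0.22, adjusted p = 0.917) did not pass. In ctrl libraries only, S1pr1 (-0.31, limma adjusted p = 0.139), S1pr2 (-1.76, adjusted p = 0.101), Spns2 (1.75, adjusted p = 0.162) and Sgpp1 (-0.61, adjusted p = 0.336) did not pass, and Sgpp1 did not pass without mouse 2 either (-0.57, adjusted p = 0.0746). Heart and diaphragm also differ in tissue, which cannot be told apart from the vessel type here, and this comparison shares the heart BEC libraries with the previous one.

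Between the LEC populations only Sphk1 passed, against 4.56% of all genes. It was lower in heart LECs by -0.97 ± 0.25 (limma adjusted p = 0.0197), in 9 of 11 mice, where 1.88% of all genes were called lower and 2.67% higher. Without mouse 5 the limma adjusted p was 0.0617, and without mouse 15 it was 0.0527. In ctrl libraries only, Sphk1 did not pass (-0.82, limma adjusted p = 0.266), whereas S1pr1 passed as lower in heart LECs (-0.59, adjusted p = 0.0275). S1pr3 was 1.15 ± 0.38 higher in heart LECs without passing (limma adjusted p = 0.0851), but passed without mouse 6 (1.54, adjusted p = 0.0246) or mouse 9 (1.22, adjusted p = 0.0286). S1pr1 (-0.22 ± 0.09, limma adjusted p = 0.198), S1pr2 (-0.16 ± 0.29, adjusted p = 0.823), Sphk2 (-0.04 ± 0.34, adjusted p = 0.971), Spns2 (-0.37 ± 0.31, adjusted p = 0.583), Sgpl1 (-0.06 ± 0.22, adjusted p = 0.914), Sgpp1 (0.43 ± 0.21, adjusted p = 0.275) and Plpp3 (-0.17 ± 0.12, adjusted p = 0.476) did not pass either. For Plpp3 the 95% interval of -0.42 to 0.07 leaves out a difference of the size seen against heart BECs.

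**Figure D2:**
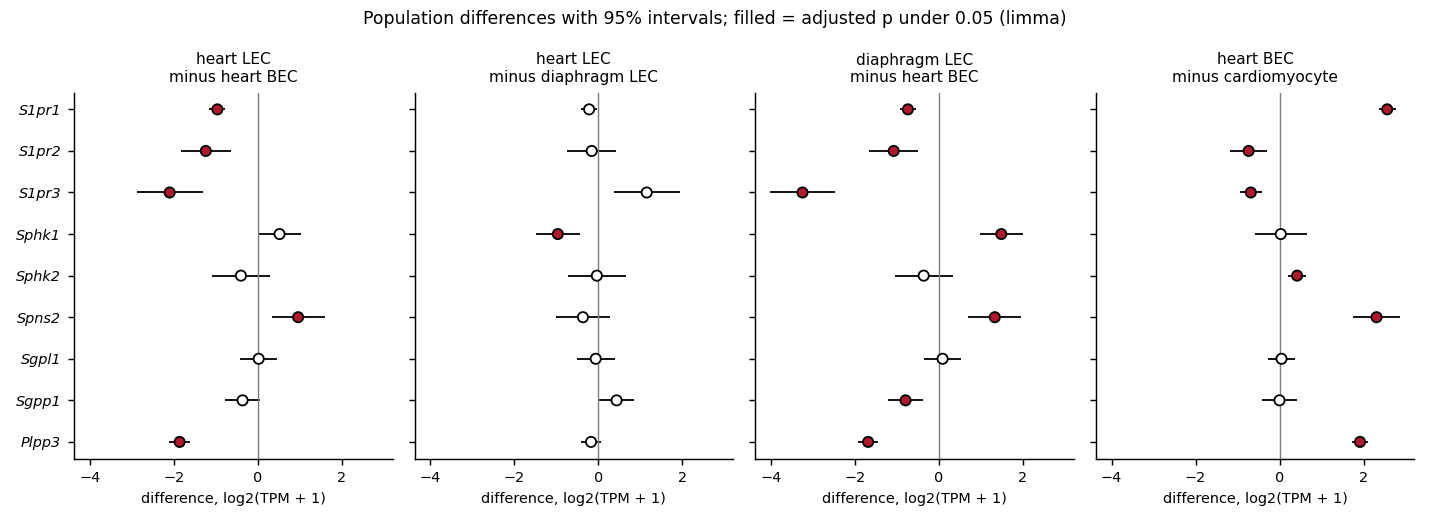
Difference in log2(TPM + 1) of the 9 genes between populations, with 95% intervals; filled points passed an adjusted p under 0.05 in limma. The receptor genes and Plpp3 lie left of 0 and Spns2 lies right of 0 in both LEC comparisons with heart BECs.

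S1pr3 varied between LEC libraries along with transcripts of mural cells. The 8 pericyte and smooth muscle markers summed to 886 TPM in the heart LEC library of mouse 3, 406 TPM in that of mouse 9 and 696 TPM in the diaphragm LEC library of mouse 9, and to between 46.6 and 264 TPM in the other heart LEC and between 46.9 and 131 TPM in the other diaphragm LEC libraries. The same 3 libraries held 42.4, 30.1 and 18.0 TPM of S1pr3. Heart BEC libraries had 157 to 439 TPM of these markers and cardiomyocyte libraries 1009 to 2132 TPM, and no marker of the list was at a median of 0 in any population. Rgs5, a pericyte marker on this list, was the gene most like S1pr3 over the 48 libraries (Pearson r = 0.927), followed by Cygb and Gstm2. These 3 libraries were picked after seeing the data and held the highest S1pr3 values of their populations. Leaving them out therefore widens the gap to heart BECs by design and cannot test it. The differences from heart BECs were then -2.48 in heart LECs and -3.52 in diaphragm LECs. S1pr3 was then 1.05 higher in heart than in diaphragm LECs (limma adjusted p = 0.0382), a value that rests on the same choice. The part of mural cells in the S1pr3 values was not tested.

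**Figure D3:**
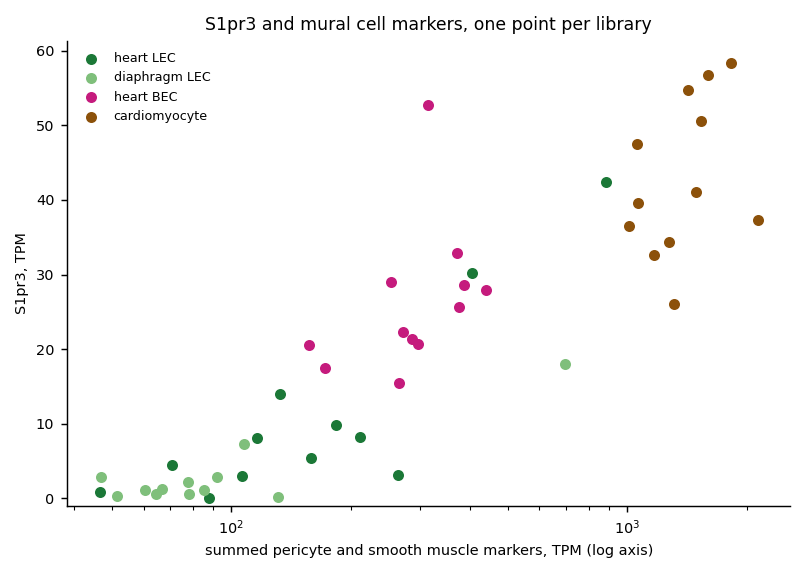
S1pr3 in TPM (linear axis) against the summed TPM of 8 pericyte and smooth muscle markers (log axis), one point per library. The LEC libraries with 18.0, 30.1 and 42.4 TPM of S1pr3 are those with over 400 TPM of the markers.

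Heart BECs and cardiomyocytes differed in 6 of the 9 genes, against 74.8% of the 23213 genes tested, so that the count itself is near the background. In heart BECs, S1pr1 was 2.56 ± 0.10 higher (limma adjusted p = 2.46e-16), Spns2 2.31 ± 0.27 (adjusted p = 5.2e-08), Plpp3 1.91 ± 0.09 (adjusted p = 1.49e-14) and Sphk2 0.42 ± 0.10 (adjusted p = 0.00108), where 64.1% of all genes were called higher. S1pr2 (-0.74 ± 0.21, limma adjusted p = 0.00352) and S1pr3 (-0.68 ± 0.13, adjusted p = 4.48e-05) were lower in heart BECs, where 10.8% of all genes were called lower. The median of all genes was 0.61, so relative to it Sphk2 was not higher, and after quantile normalization Sphk2 passed in the opposite direction (-0.31, limma adjusted p = 0.0214). In ctrl libraries only, S1pr2 (-0.030, limma adjusted p = 0.935) and Sphk2 (0.27, adjusted p = 0.191) did not pass. Sphk1 (0.03 ± 0.30, limma adjusted p = 0.934), Sgpl1 (0.05 ± 0.15, adjusted p = 0.788) and Sgpp1 (-0.0023 ± 0.20, adjusted p = 0.992) did not pass, but after quantile normalization they passed as lower in heart BECs (-0.72, -0.69 and -0.76, adjusted p = 0.0376, 6.9e-05 and 0.000793). Population, isolation and sequencing run cannot be told apart in this comparison.

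Among 52 other genes of S1P and sphingolipid metabolism and signaling, 47 were tested in the population comparisons. Between heart LECs and heart BECs 9 were higher and 10 lower in heart LECs, against 17.6% of all genes in either direction, and 8 passed in ctrl libraries only. The 5 largest differences were Ugcg (1.33), which makes glucosylceramide, Degs1 (1.23), which desaturates dihydroceramide, the arrestin gene Arrb1 (1.21), the lipid phosphatase gene Plpp2 (1.15) and the receptor kinase gene Grk2 (-1.44). Of 17 ceramide synthesis genes tested 5 were higher and 4 lower, and of 15 receptor coupling and partner genes 1 was higher and 5 were lower. Over all genes 8.94% were called higher and 8.64% lower, and the lists were not compared by a test. Between diaphragm LECs and heart BECs 12 were higher and 10 lower, against 16.6% of all genes, and 11 passed in ctrl libraries only. The largest differences were Arrb1 (1.71), Ugcg (1.58), Degs1 (1.56), the sphingomyelin synthase gene Sgms2 (1.37) and the transporter gene Abca1 (1.36). Of the genes named in these 2 comparisons, Grk2, Arrb1 and Plpp2 (adjusted p = 0.0891, 0.140 and 0.0517 in limma, in the heart LEC comparison) and Sgms2 (0.290, in the diaphragm LEC comparison) did not pass in ctrl libraries only.

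Degs1 had means of 445 ± 69.2 TPM in heart LECs, 560 ± 75.8 TPM in diaphragm LECs and 190 ± 20.8 TPM in heart BECs (SD, n = 12 each). Between the LEC populations 1 of the 47 was higher in heart LECs, the alkaline ceramidase gene Acer2 (1.13), and 7 were lower, led by Plpp1 (-0.54), Gna13 (-0.51), Abcg2 (-0.48) and Gnai3 (-0.46), against 4.56% of all genes. These 8 calls were 5 without mouse 2, mouse 8 or mouse 14, and in ctrl libraries only Acer2 alone passed (1.46, limma adjusted p = 0.00179), with adjusted p from 0.116 to 0.296 for the 4 genes named as lower. Heart BECs were higher than cardiomyocytes in 38 and lower in 3, against 74.8% of all genes, led by Abcg2 (2.34), Acer2 (2.32), the shear-responsive factor gene Klf2 (2.31), Sgms1 (2.13) and Abca1 (1.85). Mfsd2b, the S1P exporter of erythrocytes and platelets, averaged at most 1.76 TPM in any population, although erythrocyte markers summed to between 5220 and 31325 TPM in heart BECs.

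The treatment comparisons asked whether angiotensin II, or VEGFCc156s given with it, changed these genes within a population. No member passed at an adjusted p under 0.05 in limma in any of the 12 comparisons, and 13 values in all had an unadjusted p under 0.05. Those 13 are described gene by gene, with their SE and adjusted p. Where treatment groups are said not to overlap, the share of all genes doing so is not given. A lack of overlap therefore only describes the libraries. Few genes passed anywhere. For angII against ctrl, 0.0261% of genes passed in heart LECs and 0.0892% in cardiomyocytes, for angII+VEGFC against ctrl 0.663% passed in cardiomyocytes, and in the other 9 comparisons 0% passed. The comparisons of angII and of angII+VEGFC with ctrl share the ctrl libraries, and those with angII share the angII libraries.

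S1pr1 was the receptor gene with unadjusted p values under 0.05 in the most populations. In cardiomyocytes it was 83.8, 85.1, 92.1 and 96.0 TPM in ctrl, 98.6, 110, 111, 132 and 141 TPM in angII and 103, 111 and 129 TPM in angII+VEGFC libraries. Both treated groups lay wholly above ctrl. The angII difference was 0.41 ± 0.16 (limma adjusted p = 0.387), beside a median of 0.12 over all genes. After quantile normalization the S1pr1 difference was 0.23 (adjusted p = 0.695). Fibroblast markers in these libraries summed to 2413 to 3497 TPM in ctrl, 3965 to 5595 TPM in angII and 3346 to 6502 TPM in angII+VEGFC, which overlapped with ctrl only in the last group. Macrophage and leukocyte markers were above ctrl without overlap, at 615 to 759 TPM in ctrl, 935 to 1762 TPM in angII and 828.5 to 2094 TPM in angII+VEGFC. The part of these cells in the cardiomyocyte values was not tested. In heart BECs it was 451, 490, 504 and 595 TPM in ctrl, 495, 607, 629, 714 and 912 TPM in angII and 598, 805 and 870 TPM in angII+VEGFC libraries, so that the last group lay above ctrl and angII overlapped with it. The differences from ctrl were 0.39 ± 0.16 for angII (limma adjusted p = 0.898) and 0.53 ± 0.19 for angII+VEGFC (adjusted p = 0.857), the latter 0.85 without mouse 2 and 0.33 without mouse 6.

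In heart LECs S1pr1 was 224, 246, 293 and 335 TPM in ctrl, 291, 322, 367, 399 and 426 TPM in angII and 267, 368 and 427 TPM in angII+VEGFC libraries. The groups overlapped, and angII differed from ctrl by 0.42 ± 0.19 (limma adjusted p = 0.435), by 0.60 within batch 1 and 0.19 within batch 2. Blood endothelial markers in heart LEC libraries summed to 1246 to 2561 TPM in ctrl, 2772 to 7339 TPM in angII and 1651 to 2080 TPM in angII+VEGFC, and their part in the S1pr1 and Plpp3 values was not tested. In diaphragm LECs the order was the opposite, with 381, 414, 419 and 420 TPM in ctrl and 313, 313, 343, 346 and 388 TPM in angII libraries, which overlapped through 1 library on each side. The difference was -0.25 ± 0.12 (limma adjusted p = 0.334), beside a median of 0.28 over all genes, and the angII+VEGFC libraries ran from 371 to 414 TPM. The count of detected genes did not overlap between the ctrl and angII groups, as given for S1pr2. The angII effect on S1pr1 was 0.67 ± 0.21 higher in heart LECs than in diaphragm LECs (limma adjusted p = 0.321), and in diaphragm LECs minus heart BECs it differed by -0.65 ± 0.21 (adjusted p = 0.386). Neither interaction passed.

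S1pr3 in heart BECs was 25.7, 28.5, 32.9 and 52.8 TPM in ctrl, 15.4, 17.4, 20.6, 20.6 and 21.4 TPM in angII and 22.2, 28.0 and 29.0 TPM in angII+VEGFC libraries. The angII libraries lay wholly below both of the other groups. The difference from ctrl was -0.80 ± 0.21 (limma adjusted p = 0.690), and it was -0.96 in batch 1 and -0.65 in batch 2. In heart LECs, S1pr3 was 8.12, 8.25, 9.80, 14.0 and 42.4 TPM in angII and 0, 2.95 and 3.11 TPM in angII+VEGFC libraries, with no overlap (-2.01 ± 0.86, limma adjusted p = 0.442). That difference was -0.90 without the angII+VEGFC library of mouse 6, where S1pr3 is listed at 0, and -0.95 without the angII library of mouse 3. S1pr2 in these groups was 1.39, 1.77, 1.87, 3.41 and 4.49 TPM in angII and 0.820, 1.30 and 1.34 TPM in angII+VEGFC libraries. Its difference of -0.60 ± 0.67 (limma adjusted p = 0.733) did not reach an unadjusted p of 0.05. Between these heart LEC groups the count of detected genes (1 TPM or more) did not overlap either, at 19957 to 25896 in angII and 16756 to 18884 in angII+VEGFC, and the median of all genes was -0.37. With that count as a covariate, 1 member in place of 2 had an unadjusted p under 0.05, and its part in the S1pr3, S1pr2 and Plpp3 values was not otherwise tested. Pericyte and smooth muscle markers were lower in angII than in ctrl heart BECs as well, at 157 to 297 TPM against 315 to 388 TPM, and spanned 116 to 886 TPM in angII and 87.7 to 264 TPM in angII+VEGFC heart LECs. Their part in the S1pr3 values was not tested. The change of S1pr3 from angII to angII+VEGFC differed between heart LECs and heart BECs by -2.94 ± 0.95 (limma adjusted p = 0.768), and its angII effect by 1.90 ± 0.87 (adjusted p = 0.681).

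S1pr2 in diaphragm LECs was 0.205, 1.48, 1.91 and 2.08 TPM in ctrl, 0.882, 3.98, 5.21, 7.55 and 9.40 TPM in angII and 0.299, 1.31 and 1.84 TPM in angII+VEGFC libraries. Except for 1 library, mouse 15, the angII libraries lay above both other groups. The differences were 1.29 ± 0.55 from ctrl (limma adjusted p = 0.310) and -1.67 ± 0.64 from angII to angII+VEGFC (adjusted p = 0.567). The count of detected genes (1 TPM or more) was highest in angII as well, at 20062 to 23691 against 12924 to 18116 in ctrl and 14963 to 18373 in angII+VEGFC, without overlap. With that count as a covariate the differences were 0.55 and -1.04, and no member had an unadjusted p under 0.05 in either comparison. The difference of means was 2.14 in batch 1 and 0.19 in batch 2 against ctrl, and -2.55 and -0.42 from angII to angII+VEGFC. Compared with heart BECs, the S1pr2 effects in diaphragm LECs differed by 1.79 ± 0.66 for angII (limma adjusted p = 0.386) and by -1.55 ± 0.72 for adding VEGFCc156s (adjusted p = 0.709). With the mouse as a replicate block, no member had an unadjusted p under 0.05 in the latter interaction.

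Spns2 in heart BECs was 20.6, 25.7, 26.6 and 28.6 TPM in ctrl, 27.7, 33.0, 43.1, 67.0 and 67.2 TPM in angII and 26.04, 45.1 and 54.2 TPM in angII+VEGFC libraries. The ctrl libraries were close together and overlapped with 1 library of each treated group. The differences from ctrl were 0.72 ± 0.27 for angII (limma adjusted p = 0.862) and 0.77 ± 0.32 for angII+VEGFC (adjusted p = 0.878), the latter 1.21 without mouse 6. In heart LECs the ctrl libraries alone ran from 12.1 to 180 TPM, wider than the spread of the treated heart LEC libraries (35.1 to 130 TPM). In diaphragm LECs the angII+VEGFC libraries (106, 110 and 115 TPM) lay above the angII libraries (66.8 to 90.2 TPM), while ctrl spanned both with 46.9, 48.01, 95.6 and 264 TPM.

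Plpp3 in heart LECs was 145, 157, 161, 210 and 221 TPM in angII and 83.5, 89.2 and 136 TPM in angII+VEGFC libraries, with no overlap (-0.83 ± 0.29, limma adjusted p = 0.416). It was -0.49 without the angII+VEGFC library of mouse 2, and -1.70 with the number of genes as a covariate (adjusted p = 0.831). The ctrl libraries, at 73.3, 138, 141 and 170 TPM, spanned both. This change differed from that in heart BECs by -0.87 ± 0.30 (limma adjusted p = 0.768) and from that in diaphragm LECs by -0.82 ± 0.30 (adjusted p = 0.905), and the angII effect differed between heart and diaphragm LECs by 0.80 ± 0.27 (adjusted p = 0.361). In cardiomyocytes, angII+VEGFC differed from ctrl in Plpp3 by 0.50 ± 0.21 (limma adjusted p = 0.334) and in S1pr2 by 0.75 ± 0.33 (adjusted p = 0.348). The S1pr2 values there were 5.79, 6.78, 7.11 and 7.82 TPM in ctrl and 6.37, 16.2 and 18.0 TPM in angII+VEGFC libraries. Without the angII+VEGFC library of mouse 8, 2 members passed, S1pr2 among them (1.18, limma adjusted p = 0.0177), and 5 had an unadjusted p under 0.05. That library held 19306 detected genes (1 TPM or more), against 13849 and 13226 in the angII+VEGFC libraries of mouse 2 and mouse 6. Without the library of mouse 2, S1pr2 was 0.41. With the number of genes as a covariate Plpp3 passed (0.69, limma adjusted p = 0.0449), and 6 members had an unadjusted p under 0.05. After quantile normalization Plpp3 was 0.33 (adjusted p = 0.396). Without mitochondrial genes no member had an unadjusted p under 0.05 in this comparison.

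The counts of members are set beside those of all genes. For angII against ctrl, an unadjusted p under 0.05 was reached by 1, 1, 3 and 1 of the 9 members (heart LECs, diaphragm LECs, heart BECs, cardiomyocytes), against 10.9%, 15.3%, 5.4% and 9.85% of all genes in these populations. Adding VEGFCc156s to angII gave 2, 1, 0 and 0 members in the same order, against 10.8%, 8.78%, 2.59% and 2.41% of all genes. For angII+VEGFC against ctrl they were 0, 0, 2 and 2 members, against 4.94%, 1.32%, 5.51% and 12.9% of all genes. The members above an unadjusted p of 0.05 lay between -1.10 and 0.91 in all 12 comparisons. No interaction of treatment and population passed for any member, where 0.00611% of the genes passed for angII in heart against diaphragm LECs and 0% in the other 5. At an unadjusted p under 0.05 the members counted 1, 2 and 2 for angII (heart LECs against heart BECs, heart against diaphragm LECs, and diaphragm LECs against heart BECs), against 7.19%, 9.7% and 11.0% of all genes, and 2, 1 and 1 for adding VEGFCc156s, against 6.43%, 4.88% and 7.0%.

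**Figure D4:**
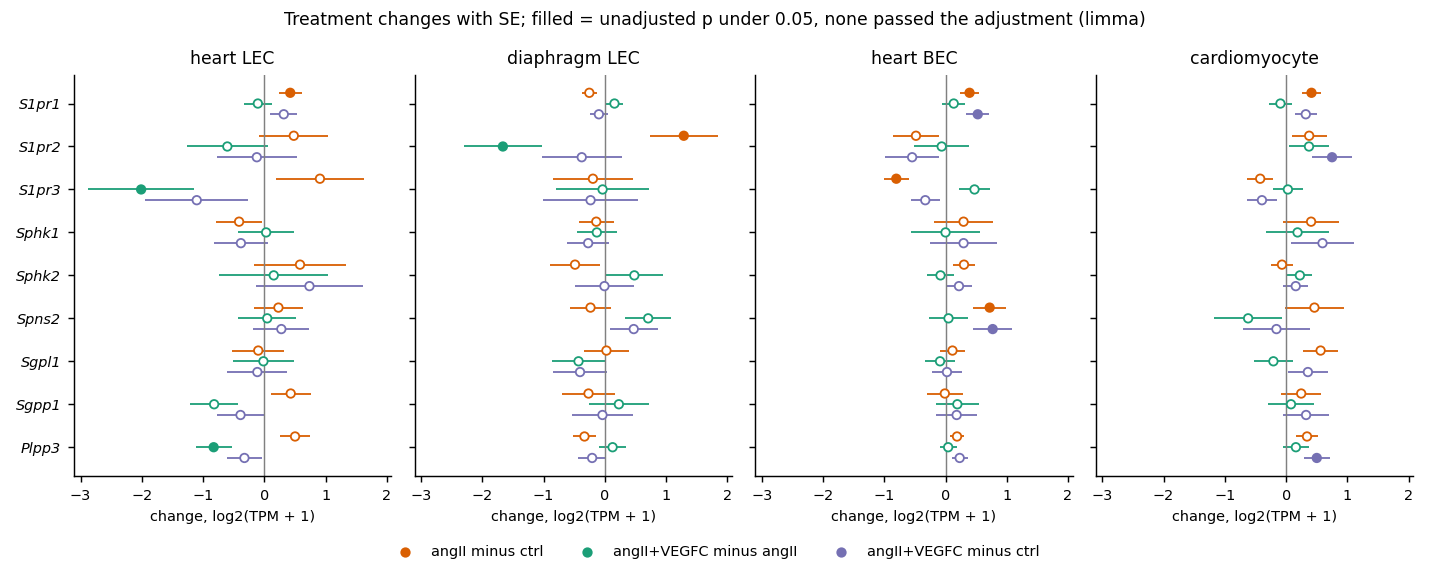
Change in log2(TPM + 1) of the 9 genes by treatment in each population, with SE; filled points had an unadjusted p under 0.05 in limma and none passed the adjustment. The S1pr1 points for angII lie right of 0 in heart LECs, heart BECs and cardiomyocytes and left of 0 in diaphragm LECs.

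No gene of the other 52 passed in a treatment comparison. With 1 surrogate variable Cers6 passed in diaphragm LECs (1.35, limma adjusted p = 0.0448, angII against ctrl). With the number of genes as a covariate Ormdl3 (0.51, limma adjusted p = 0.0415, angII against ctrl) and Sptlc2 (0.77, adjusted p = 0.0373, angII+VEGFC against ctrl) passed in cardiomyocytes, and Cers6 was 0.44. For angII against ctrl the smallest unadjusted p values were those of Acer2 (-0.64), Cerk (1.498) and Abcc1 (0.92) in heart LECs, Cers6 (1.35) and Cers4 (-0.57) in diaphragm LECs, Sgms1 (0.52), Grk2 (0.46) and Rtn4 (0.56) in heart BECs, and Asah1 (0.42), Ormdl3 (0.42) and Plpp1 (0.41) in cardiomyocytes. Without the ctrl heart LEC library of mouse 9, where Cerk was 0.298 TPM, Cerk was 0.21 and Abcc1 0.46. The ceramide synthase gene Cers6 in diaphragm LECs (limma adjusted p = 0.297) was -1.27 from angII to angII+VEGFC. For that step the other genes were Kdsr (-0.97) in diaphragm LECs, Sgms1 (-0.50) in heart LECs, and Plpp1 (0.38) and Ormdl2 (-0.32) in heart BECs. For angII+VEGFC against ctrl they were Arrb1 (1.05) in heart LECs, Plpp1 (0.63), Gna12 (0.74) and Arrb2 (0.70) in heart BECs, and Cers4 (-0.99), Plpp1 (0.54) and Sptlc2 (0.57) in cardiomyocytes. Leaving out libraries in turn moved Arrb1 between 0.58 and 1.74, Kdsr between -1.21 and -0.65, Grk2 between 0.28 and 0.53, Plpp1 from angII to angII+VEGFC between 0.27 and 0.61, Gna12 between 0.40 and 1.03, and Asah1 between 0.28 and 0.49.

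Sphk1, the inducible sphingosine kinase gene, varied from mouse to mouse in the heart populations. In heart BECs it was 8.36, 9.38, 9.85, 13.2, 19.7, 21.9, 23.3, 25.5, 30.1, 33.1, 34.9 and 36.6 TPM in mice 8, 9, 12, 5, 11, 14, 18, 15, 3, 6, 1 and 2. In the cardiomyocyte libraries of the same mice, in that order, it was 7.57, 11.7, 12.1, 11.6, 13.1, 14.8, 23.4, 26.4, 29.7, 40.8, 29.9 and 42.5 TPM. Mice that were low in one population were low in the other. Over these 12 mice Pearson r was 0.924 and Spearman rho 0.972 on the log2(TPM + 1) scale (two-sided permutation p = 1e-05 for each, the smallest the permutations can give; adjusted p = 0.00054 over 54 relations of 9 genes and 6 pairs of populations). Without the 2 mice farthest from the median r was 0.896, within treatments it was 0.930, and within endothelial sequencing batches 1 and 2 it was 0.910 and 0.962 (6 mice each). Over the 14726 genes that passed the expression filter in both populations, the median r of this kind was 0.09, and 0.0272% of genes were at or above the value of Sphk1.

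Heart LECs followed less closely. Against heart BECs r was 0.725 (permutation p = 0.008, adjusted p = 0.0617) and rho 0.755 (permutation p = 0.00607, adjusted p = 0.0819), with r = 0.713 and 0.741 in the batches. Against cardiomyocytes r was 0.747 (permutation p = 0.00504, adjusted p = 0.0617) and rho 0.692 (permutation p = 0.0153, adjusted p = 0.138), with r = 0.841 and 0.659 in the batches. Without the 2 farthest mice these r values were 0.745 and 0.639. For Sphk1 in diaphragm LECs r was 0.03 against heart LECs, -0.06 against heart BECs and -0.04 against cardiomyocytes over 11 mice, and rho was -0.08, -0.07 and -0.15 (permutation p from 0.671 to 0.920). The heart populations of a mouse came from a single organ and digest, and the part of this in the Sphk1 values was not tested. Blood endothelial markers summed to between 1972 and 3391 TPM in the unsorted cardiomyocyte libraries. The part of endothelial cells in the Sphk1 values of those libraries was not tested either.

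No other relation passed the adjustment. Spns2 in heart LECs ran against cardiomyocytes (r = -0.776, permutation p = 0.00227, adjusted p = 0.0613, and rho = -0.769, permutation p = 0.00505, adjusted p = 0.0819), but r was -0.02 within batch 1 and -0.73 within batch 2. Without the 2 farthest mice it was -0.72. These relations were examined after the values had been seen.

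**Figure D5:**
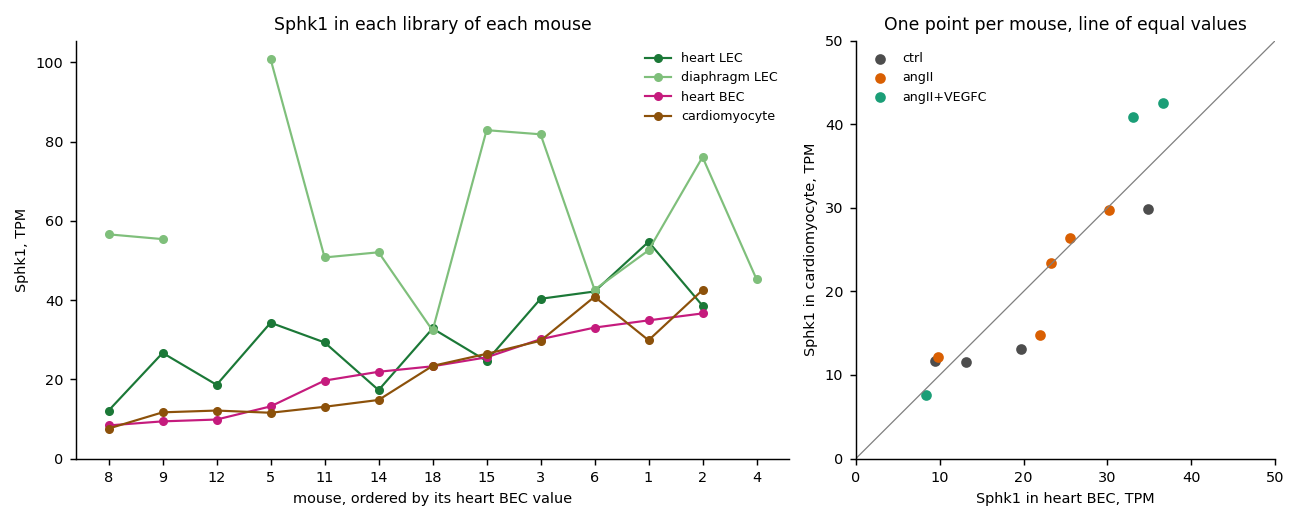
Sphk1 in TPM in each population of each mouse, with mice ordered by heart BEC value (left), and cardiomyocyte against heart BEC value with the line of equal values (right). Heart BEC and cardiomyocyte values run close together from mouse 8 to mouse 2, heart LECs follow more loosely, and diaphragm LECs do not follow this order.

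As a description of which genes followed the members over all 48 libraries, S1pr1 was most like Sgk1 (Pearson r = 0.970), Klf6 and Plod1, Spns2 most like Marcks (0.972), Foxo1 and Rock2, and Plpp3 most like Mgll (0.945), Ier3 and Tmem88. Sphk1 was most like Tubb6 (0.878), Ifrd1 and Myc, S1pr2 like Abca9 (0.804), Col6a1 and Podn, and Sphk2 like Exosc4 (0.831), Tfip11 and BC017158. Sgpp1 (Sox13, Sertad4 and Igfbp7, from 0.713) and Sgpl1 (Gm4815, Slc39a11 and Cnr2, from 0.568) had no close counterpart. These values run over 4 populations of 12 libraries each. Among the members S1pr1 and Plpp3 followed each other at r = 0.701, with 0.883 within cardiomyocytes, 0.770 within heart BECs, 0.431 within heart LECs and 0.233 within diaphragm LECs. S1pr1 and Spns2 followed each other at 0.671, and at 0.115 to 0.365 within populations. S1pr3 and Spns2 were opposed at -0.674, with values between -0.333 and 0.227 within populations.

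Exons of some members overlap with genes on the opposite strand. Sphk2 shares 539 of its 4159 exon bases with Dbp and 373 with Rpl18, whose mean level was 648 TPM, and Spns2 shares 131 of 4083 with Mybbp1a. Sphk1 shares 192 bases with the antisense gene Gm29292 and S1pr3 shares 45 bases with Gm32834, both at under 2 TPM on average. The kit is not described as keeping strand, so reads in these stretches cannot be told apart and the Sphk2 level in particular is uncertain.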

How the data were processed

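The authors aligned reads from low input Smart-Seq libraries to GRCm38 with STAR (2.5.3a), quantified Ensembl genes with Salmon (0.12.0) and deposited 1 matrix of TPM. Endothelial cells were sorted as CD31+ CD45-, with eGFP separating LECs from BECs, in 2 sequencing batches. TPM keep no depth, so sequencing depth is unknown and no counting intervals are given; library sums were 997657 to 999929 TPM, and 12924 to 25896 genes reached 1 TPM. No 2 libraries held identical values.

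Groups followed the labels. Tests used limma (3.58.1, R 4.3.3) on log2(TPM + 1), which understates changes of low genes, with the variance trend, a filter that kept genes reaching 1 TPM in 3 or more libraries, and Benjamini-Hochberg adjustment over all genes tested. Age and batch were covariates, and age alone where cardiomyocytes entered. A log2 difference is given with its SE. The tests were tested on simulated data. Populations were paired by mouse number, taking libraries with 1 number as coming from 1 animal. The mean correlation of deviations was 0.06 over 34 same-mouse and -0.02 over 116 other pairs, too small to show this by itself.

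The members and the other pathway lists were chosen with earlier results of these data known. All members are named; of the other genes, the 5 largest called population differences, and by treatment up to 3 with the smallest unadjusted p under 0.05. For each member the 3 genes with the highest correlation are named. Alternatives were another pseudocount, no filter, no covariates, quantile normalization, no mitochondrial genes, the number of genes as a covariate, 1 surrogate variable, fewer groups, a mouse block and leaving out libraries. Correlations over mice used 100000 random pairings. P-values of the treatment comparisons and of the correlations over mice measure spread between mice. Those of the population comparisons and interactions count libraries of the same mouse as independent, except under the mouse block.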

Additional observations from a re-analysis of the deposited data

Results flagged for a closer look

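A single library lay far from the others of its group, by Dixon's criterion at 95%, in 8 of the 72 groups of 4 or 5 libraries of the 9 genes, and chance alone marks about 1 in 20 groups. For S1pr3 these were the highest heart LEC libraries, 30.1 TPM in ctrl (mouse 9, others 0.781 to 5.43) and 42.4 TPM in angII (mouse 3, others 8.12 to 14.0), the highest ctrl diaphragm LEC library, 18.0 TPM (mouse 9, others 0.592 to 1.04), and the lowest ctrl cardiomyocyte library, 36.5 TPM (mouse 5, others 54.7 to 58.4). The 3 LEC libraries are those with the most pericyte and smooth muscle marker transcripts.

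For Sphk1 the highest ctrl library stood apart in diaphragm LECs at 101 TPM (mouse 5, others 50.8 to 55.4) and in cardiomyocytes at 29.9 TPM (mouse 1, others 11.6 to 13.1). For S1pr1 the lowest ctrl diaphragm LEC library was at 381 TPM (mouse 9, others 414 to 420), and for Sgpp1 the highest ctrl heart BEC library was at 23.8 TPM (mouse 1, others 11.2 to 13.0).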

How the results depend on the processing

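Under the replicate block (mouse), the number of members called was 4 in place of 5 for heart LECs against heart BECs, through Spns2 (0.96, limma adjusted p = 0.0551), and the block changed no other call of a member. Spns2 in this comparison also missed the threshold with no filter (0.96, adjusted p = 0.0524), after quantile normalization (0.94, adjusted p = 0.0505), in ctrl libraries only (1.24, adjusted p = 0.353) and without 8 of the 13 mice in turn. With ctrl libraries only, 3 members were called in each LEC comparison with heart BECs, in place of 5 and 7, over 12 libraries. Leaving out mice in turn gave 0 to 2 members called between the LEC populations, where the main count was 1. Leaving out libraries in turn gave 0 to 2 members called for angII+VEGFC against ctrl in cardiomyocytes, where the main count was 0, and the number of genes as a covariate gave 1. Without the LEC libraries richest in pericyte and smooth muscle markers, an alternative chosen after seeing the data, 2 members were called between the LEC populations.

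Sphk2 in heart BECs against cardiomyocytes passed in opposite directions as reported and after quantile normalization (-0.31, limma adjusted p = 0.0214), and there Sphk1 (-0.72), Sgpl1 (-0.69) and Sgpp1 (-0.76) passed as well. The other values that changed sign did not pass under either setting. For heart LECs against heart BECs these were Sphk2 with the number of genes as a covariate (0.083) and Sgpl1 with that covariate (-0.012), after quantile normalization (-0.061) and without the LEC libraries richest in mural markers (-0.025). Between the LEC populations they were S1pr2 in ctrl libraries only (0.075) and Sphk2 with the gene number covariate (0.39). For heart BECs against cardiomyocytes they were Sphk1 (-0.32) and Sgpl1 (-0.30) without mitochondrial genes, and Sgpp1 with a pseudocount of 0.1 (1.1e-06), the gene number covariate (0.29) and ctrl libraries only (0.15). Leaving out mice moved Sgpl1 from -0.053 to 0.11 (heart LECs against heart BECs), from -0.21 to 0.063 (between LECs), from -0.0080 to 0.18 (diaphragm LECs against heart BECs) and from -0.071 to 0.21 (heart BECs against cardiomyocytes), Sphk2 from -0.30 to 0.26 and Spns2 from -0.64 to 0.058 between LECs, and Sphk1 from -0.015 to 0.078 and Sgpp1 from -0.11 to 0.20 between heart BECs and cardiomyocytes. The cause was not tested. Median shifts of all genes by treatment of up to 0.37 in size in LECs fell to at most 0.06 after quantile normalization. Treatment groups hold different mice, so no paired analysis was possible there. Depth is unknown in TPM.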
